A study of Mus musculus with 3 samples.

Results

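The genes described here are 9 genes of heme synthesis, 7 enzymes of the pathway and 2 carriers of the inner mitochondrial membrane. They are Alas2, Alad, Uros, Urod, Cpox, Ppox, Fech, Slc25a37 and Slc25a38, chosen by name, and each had 1 row in the deposited tables among 17250 gene names. mRNA was measured by RNA sequencing in BM cells flushed from the bones of C57BL/6 mice of 6 to 8 weeks. LECT2, a protein secreted by the liver, was given as recombinant protein under the skin at 300 μg per kg once a day, for 3 days in one group and for 5 days in another. The labels of the 0-day group name no injection and no vehicle. Each of these 3 groups is represented by 1 library, and the number of mice behind a library is not given in the sources used here. No difference between time points therefore has a replicate check, and no test of LECT2 was possible.

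Heme is the iron-containing ring that carries oxygen in haemoglobin, and developing red cells in the BM make most of it. The pathway begins in the mitochondrion, where glycine and succinyl-CoA are joined to aminolevulinic acid, continues in the cytosol, and returns to the mitochondrion for its last steps. Alas2 encodes the red cell form of the enzyme of the first step, which sets the pace of the pathway, and its mRNA carries an iron-responsive element, a hairpin to which iron regulatory proteins bind when iron is scarce. Slc25a38 is held to bring glycine into the mitochondrion, and Slc25a37, mitoferrin 1, brings in the iron that Fech inserts into the ring.

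The hairpin of Alas2 is shown first, because it ties the most abundant member to iron. In GENCODE M21 (GRCm38) it lies in the 5′ UTR, in exon 1 of Alas2, at chrX:150547461-150547483 on the plus strand. The 6 capitals are the loop, and the 5 bases on either side of the loop can pair with each other at 5 of 5 positions, counting G with U as a pair.
Alas2 iron-responsive element: gttcgtcctCAGTGCagggcaac

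The 250 bases before the start of Alas2 and of Cpox follow, because these are the only member to pass a 2-fold difference and the only member whose deposited RPKM was highest at 5 days. Both sequences are from RefSeq (GRCm38.p6). Alas2 is at chrX:150547167-150547416 and Cpox at chr16:58669958-58670207, both on the plus strand. Capitals mark matches to the letters that the erythroid factor GATA1 is known to bind, searched as the motif AGATAA or the motif AGATAG, and likewise the motif TGATAA or the motif TGATAG, on both strands.
Alas2 upstream: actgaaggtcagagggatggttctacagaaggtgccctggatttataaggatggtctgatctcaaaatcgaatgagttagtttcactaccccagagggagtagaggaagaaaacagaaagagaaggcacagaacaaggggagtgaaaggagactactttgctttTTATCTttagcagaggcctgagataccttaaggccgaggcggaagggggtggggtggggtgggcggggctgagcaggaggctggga
Cpox upstream: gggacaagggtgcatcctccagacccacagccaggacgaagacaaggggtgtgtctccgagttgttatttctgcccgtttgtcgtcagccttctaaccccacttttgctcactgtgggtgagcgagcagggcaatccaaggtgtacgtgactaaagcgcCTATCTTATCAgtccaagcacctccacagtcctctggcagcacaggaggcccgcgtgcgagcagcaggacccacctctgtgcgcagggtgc

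All of these matches read on the opposite strand, and their first printed base lies 86 bases before the start in Alas2 and 91 and 86 bases before it in Cpox, where the pair overlaps by a base. Windows of 300 bases, 250 before and 50 after the start, were found for 7 of the 9 members, as 9 windows. A match was present in 3 of the 9 windows (33.3%), those of Alas2, Cpox and the second start of Uros, against 29.8% of all 32851 windows, so the members' share lay near the background. A match describes these letters only, and no binding was measured.

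The tables held between 15146983 and 15514673 reads on genes after LECT2 and 15523952 at 0 days. RPKM scales a count to transcript length and to these totals, and 1 read per kilobase is worth 0.0644 to 0.0660 RPKM. Some features of all genes move with the ratios below. For 11144 genes whose mean reached 1 RPKM, the log2 ratio had a median of 0.10 for 3 days against 0 days, 0.31 for 5 days against 0 days and 0.25 for 5 days against 3 days, and TMM scaling, which sets the bulk of genes level between libraries, brought these medians to 0.02, 0.01 and 0.03. Ratios also rose with transcript length. Against 0 days, the shortest decile (up to 1050 bases) had medians of −0.49 and −0.43 at 3 and 5 days, and the longest (from 5801 bases) 0.55 and 0.85. Where the length trend was removed, the medians over these genes were kept, at 0.10, 0.31 and 0.245 for the same comparisons. A value of 0 in that setting is therefore not the level of the bulk of genes. The part of scaling and of length in single ratios was not tested beyond the values given with them. The cells labelled BM held markers of several lineages. The summed level of 11 late neutrophil markers was 151598, 117562 and 42486 RPKM at 0, 3 and 5 days, that of 20 erythroid markers 912, 984 and 861 RPKM, that of 10 B cell markers 2444, 1948 and 1771 RPKM, and that of 10 macrophage markers 425, 580 and 766 RPKM. In such bulk RNA, fewer cells of a type and less RNA per cell cannot be told apart.

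All 9 members were well expressed, from 11.1 to 244 RPKM. Few of them differed much between time points. A gene was counted as changed when the log2 ratio of RPKM + 0.1 was at least 1 in size, which is 2-fold, with at least 1 RPKM in either library. At 3 days against 0 days 0 members were 2-fold higher and 0 lower, where 4.08% of 11325 genes were higher and 2.41% lower. At 5 days against 0 days the counts were again 0 and 0, where 15.5% of 11497 genes were higher and 5.91% lower. At 5 days against 3 days 0 members were higher and 1, Alas2, was lower, where 1.95% of 11375 genes were higher and 3.45% lower. The comparisons share libraries, so they are not independent of each other.

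The 95% intervals given with the levels are exact Poisson intervals of the reads, and those given with ratios are Clopper-Pearson intervals for a pair of read numbers. Both cover counting error only, and they say nothing about variation between mice. Without molecular identifiers reads copied by PCR count more than once, so the intervals can be too narrow even for counting error.

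**Figure D1:**
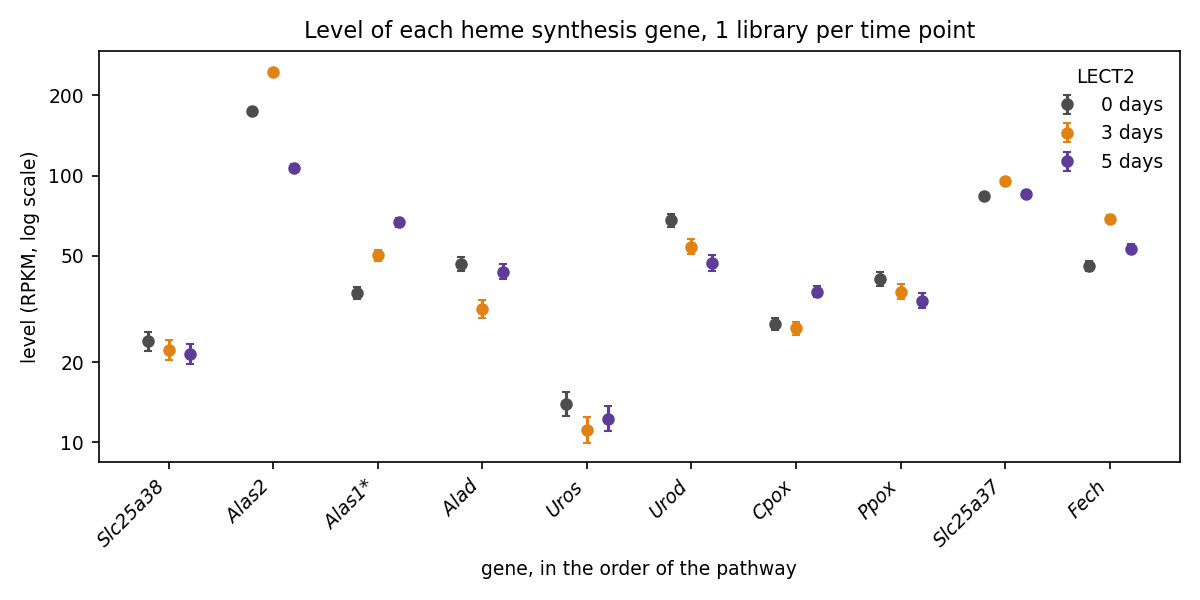
Level of each gene in RPKM (vertical axis, log scale) in the 3 libraries, with the genes in pathway order along the horizontal axis. Points are single libraries, bars are 95% counting intervals, and an asterisk marks Alas1, which is not among the 9. Alas2 spans 107 to 244 RPKM and lies highest at each time point, and Uros lies lowest, at 11.1 to 13.9 RPKM.

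The order of the levels, which RPKM allows because it is per length, was similar in the 3 libraries at its ends. Alas2 was the most abundant and Slc25a37 the next at each time point, and Slc25a38 and Uros were the lowest. Alas2 exceeded Uros 12.5-fold, 21.96-fold and 8.72-fold at 0, 3 and 5 days. Between the ends the order shifted. Fech lay below Urod at 0 days and above it at 3 and 5 days with the deposited RPKM. The length trend was removed from ratios between libraries only, so that no order of levels can be given in that setting. There the log2 ratios against 0 days were 0.54 and 0.12 for Fech at 3 and 5 days, and 0.06 and −0.10 for Urod. Neighbours whose counting intervals overlapped were Alad and Fech at 0 days, and at 5 days Urod and Alad as well as Cpox and Ppox.

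The reads of Alas2 numbered 5378, 7334 and 3293 at 0, 3 and 5 days, which is 175, 244 and 107 RPKM. It was thus highest at 3 days and lowest at 5 days. The log2 ratio was 0.48 (95% interval 0.43 to 0.53) for 3 days against 0 days, or 1.40-fold. From 3 to 5 days Alas2 fell by 1.19 on the log2 scale (interval −1.25 to −1.13), to 43.9% of its level at 3 days. This last difference stayed past 2-fold under TMM scaling (−1.41) and with the length trend removed (−1.18). For 5 days against 0 days the log2 ratio was −0.71 (−0.77 to −0.64), and the side of the 2-fold limit depended on the scaling, with −1.02 under TMM factors and −0.56 with the length trend removed.

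Alas1 encodes the form of the same enzyme that all cells use. Its level was 36.2, 50.2 and 66.8 RPKM at 0, 3 and 5 days, so that it was highest where Alas2 was lowest. Its log2 ratio of 0.88 at 5 days against 0 days did not reach 2-fold, and was 0.57 under TMM scaling. Within a library the ratio of Alas2 to Alas1 does not depend on how libraries are scaled, but it still holds the length trend (1983 against 2702 bases). It was 4.82 at 0 days (95% interval 4.56 to 5.11), 4.87 at 3 days (4.63 to 5.11) and 1.60 at 5 days (1.52 to 1.69). With that trend removed the log2 ratios against 0 days were 0.62 for Alas2 and 0.45 for Alas1 at 3 days, and −0.56 and 0.83 at 5 days. The levelness of the ratio from 0 to 3 days thus depends on that trend.

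Slc25a38, the carrier that works beside Alas2 at the first step, had 592, 537 and 530 reads, or 23.9, 22.2 and 21.4 RPKM. The 3 counting intervals overlapped, the widest difference being a log2 ratio of −0.16 (−0.33 to 0.01) at 5 days against 0 days. Under TMM scaling this was −0.47 and with the length trend removed 0.11, so that its sign differed between the scalings. The medians over all genes in these settings were 0.01 and 0.31, so that Slc25a38 lay below the median in both. The ratio of Alas2 to Slc25a38 was 7.30, 10.98 and 4.99 at 0, 3 and 5 days.

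Alad, Uros and Urod act in the cytosol. Alad condenses aminolevulinic acid into porphobilinogen, Uros closes the ring, and Urod trims its side chains. All 3 had lower levels at 3 days than at 0 days, with log2 ratios of −0.56 to −0.32, and none was 2-fold lower. Their transcripts are short, from 1199 to 1811 bases, and with the length trend removed the same ratios were −0.24 to 0.06, with 2 of 3 below 0. Under TMM scaling 3 of 3 were below 0.

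Alad had 1006, 667 and 943 reads, or 46.6, 31.6 and 43.7 RPKM. Its level was lowest at 3 days, the reverse of Alas2. The log2 ratio was −0.56 (−0.70 to −0.41) at 3 days against 0 days and 0.46 (0.32 to 0.61) at 5 days against 3 days. The first of these was −0.24 with the length trend removed, and the second 0.24 under TMM scaling. At 5 days against 0 days the interval held 0 (−0.22 to 0.04).

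Uros was the least abundant enzyme, with 392, 305 and 345 reads or 13.9, 11.1 and 12.3 RPKM. Its log2 ratio at 3 days against 0 days was −0.32 (−0.55 to −0.11), and its intervals for the other comparisons held 0.

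Urod was counted with 1267, 983 and 875 reads, which is 68.1, 54.1 and 47.0 RPKM, so that it was lower at each later time point. Against 0 days its log2 ratio was −0.33 (−0.45 to −0.21) after 3 days and −0.53 (−0.66 to −0.41) after 5 days. The latter was −0.84 under TMM scaling and −0.10 with the length trend removed, and the former turned to 0.06 with the length trend removed. Urod is encoded by the shortest transcript of the 9, at 1199 bases.

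Cpox, Ppox and Fech carry out the last steps in the mitochondrion. Cpox oxidises coproporphyrinogen, Ppox makes protoporphyrin, and Fech inserts iron into it. Of these 3, Cpox was highest at 5 days, Ppox at 0 days, or at 3 days with the length trend removed, and Fech at 3 days.

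Cpox had 1374, 1293 and 1815 reads, or 27.8, 26.8 and 36.7 RPKM. The levels at 0 and 3 days lay within each other's counting error (log2 ratio −0.05, −0.16 to 0.06), and that at 5 days lay above both. The log2 ratio was 0.40 (0.30 to 0.50) at 5 days against 0 days and 0.45 (0.35 to 0.56) at 5 days against 3 days. With the length trend removed these were 0.25 and 0.41, and under TMM scaling 0.09 and 0.23. Ppox stood at 41.0, 36.7 and 34.0 RPKM from 1159, 1013 and 961 reads. Its log2 ratio at 5 days against 0 days was −0.27 (−0.39 to −0.14), −0.58 under TMM scaling and −0.08 with the length trend removed.

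For Fech 2061, 3029 and 2396 reads were counted, or 45.8, 68.9 and 53.2 RPKM. Its level was highest at 3 days, as was that of Alas2. The log2 ratio was 0.59 (0.51 to 0.67) at 3 days against 0 days, and −0.37 (−0.45 to −0.30) at 5 days against 3 days. These were 0.51 and −0.60 under TMM scaling and 0.54 and −0.40 with the length trend removed. Between 5 and 0 days it was 0.22 (0.13 to 0.30), but −0.09 under TMM scaling, so no direction can be given. Fech exceeded Ppox, the enzyme just before it, 1.12-fold, 1.88-fold and 1.57-fold at 0, 3 and 5 days, a ratio that does not involve the scaling of libraries but still holds the length trend (2901 against 1821 bases). With that trend removed the log2 ratios at 5 days against 0 days were 0.12 for Fech and −0.08 for Ppox. Alas2 exceeded Fech 3.82-fold, 3.54-fold and 2.01-fold, and the step from 0 to 3 days turned with the length trend removed, where their log2 ratios were 0.62 and 0.54.

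**Figure D2:**
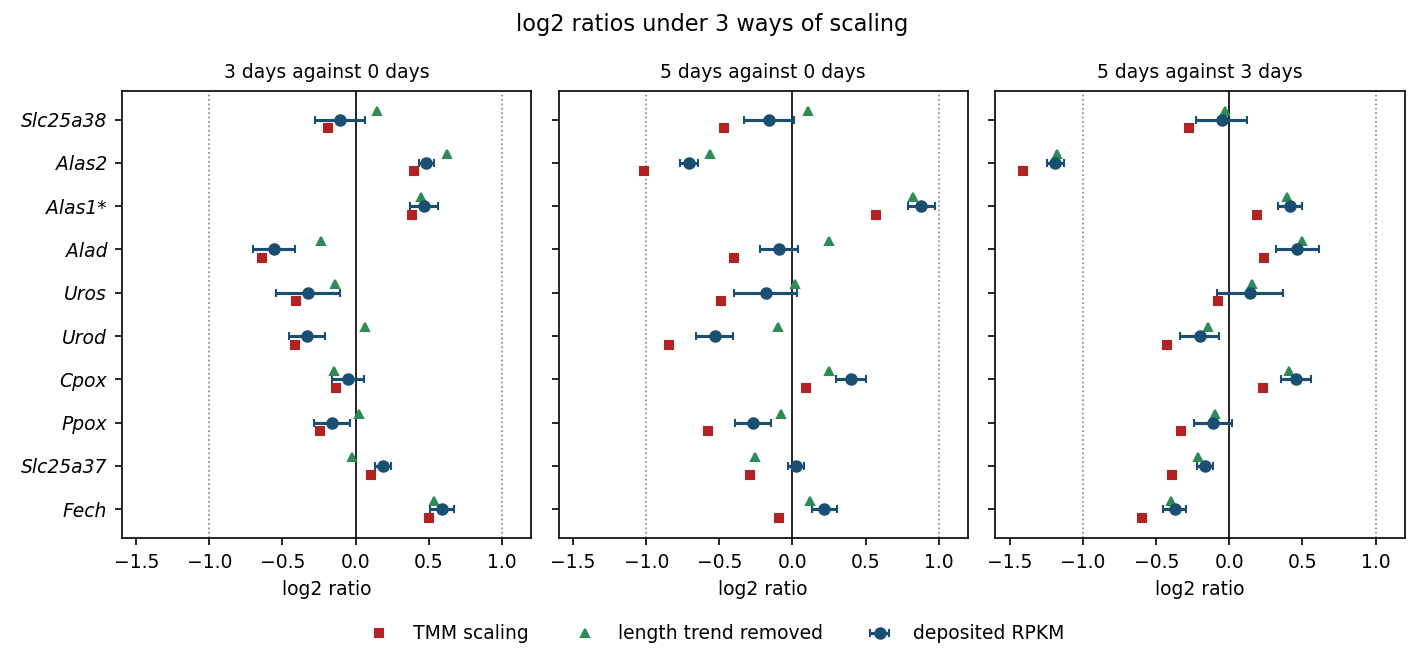
log2 ratio of each gene (horizontal axis) in the 3 comparisons, genes in pathway order from top to bottom, with Alas1 marked by an asterisk. Circles with 95% counting intervals use the deposited RPKM, squares TMM scaling and triangles the removal of the length trend, and dotted lines mark 2-fold. In the comparison of 5 days with 3 days the 3 values of Alas2 run from −1.41 to −1.18 and lie past 2-fold, and in that of 5 days with 0 days of the values plotted the one under TMM scaling (−1.02) alone does.

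Slc25a37 was the second most abundant of the 9, with 5410, 6017 and 5489 reads, or 83.7, 95.4 and 85.0 RPKM. The levels at 0 and 5 days differed by less than the counting error (log2 ratio 0.02, −0.03 to 0.08), though TMM scaling gave −0.29 and the removal of the length trend −0.26. At 3 days against 0 days the log2 ratio was 0.19 (0.14 to 0.24), and −0.03 with the length trend removed. Its paralog Slc25a28, mitoferrin 2, which serves cells outside the red lineage as well, stood at 33.4, 29.2 and 29.7 RPKM. Slc25a37 exceeded it 2.50-fold at 0 days (2.33 to 2.70), 3.27-fold at 3 days (3.02 to 3.54) and 2.86-fold at 5 days (2.64 to 3.09). The transcripts differ in length, 4162 against 1569 bases, and the direction of this ratio turned with the length trend removed, where the log2 ratios of Slc25a37 and Slc25a28 were −0.03 and 0.07 at 3 days and −0.26 and 0.11 at 5 days, each against 0 days.

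Summed over the 9 members, the level was 525, 591 and 440 RPKM. Alas2 held 33.2%, 41.3% and 24.3% of this sum, and with it the sum was highest at 3 days. Of the 9, the library of 0 days gave the highest level for 5 members, that of 3 days for 3 members and that of 5 days for 1 member, where the shares among the 11144 genes were 26.6%, 13.6% and 59.8%. With the length trend removed these numbers of members became 1, 5 and 3, so that the split depends on that trend. The 9 had medians of the log2 ratio of −0.10 (3 against 0 days), −0.16 (5 against 0 days) and −0.11 (5 against 3 days), where the 11144 genes had 0.10, 0.31 and 0.25. With the length trend removed the members' medians were 0.03, 0.01 and −0.09, so that the sign of the first and second depended on the scaling. All genes had 0.10, 0.31 and 0.245 in that setting. Under TMM scaling the members had −0.19, −0.47 and −0.33, where all genes had 0.02, 0.01 and 0.03. In each of these settings the members' medians thus lay below those of all genes.

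**Figure D3:**
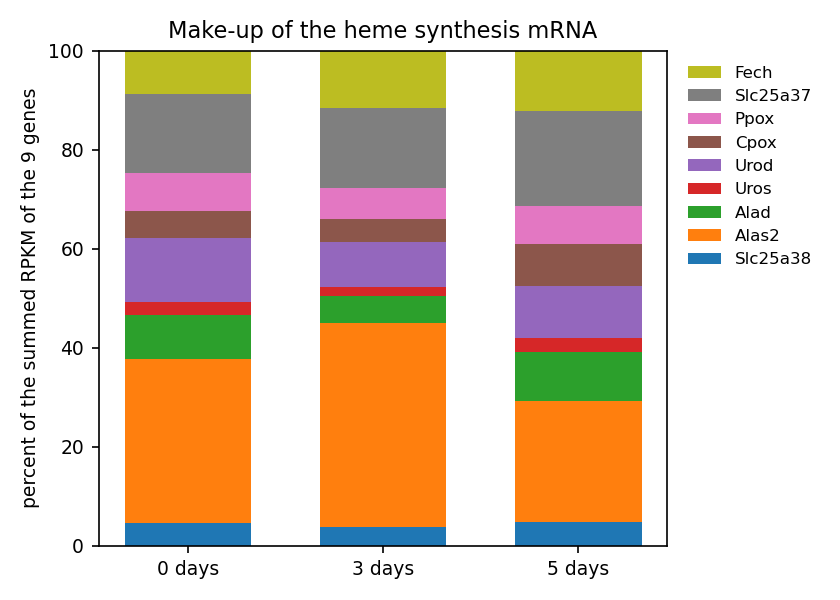
Share of each of the 9 genes in their summed RPKM (vertical axis, percent) in the libraries of 0, 3 and 5 days. Alas2 makes up 33.2%, 41.3% and 24.3% of the bars, and Slc25a37 15.9%, 16.1% and 19.3%.

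Heme joins globin to form haemoglobin. Of 7 names searched, those of globins and of their chaperone Ahsp, 4 had a row, all of them globins. These were 2-fold lower at 5 days than at 0 and at 3 days in 4 of 4 cases, or 3 of 4 against 0 days with the length trend removed. Hba-a1 stood at 2253, 1591 and 596 RPKM, and Hbb-b1 at 1696, 1387 and 527 RPKM, with the caveat that near-identical globin copies can share reads. The globins had their highest levels at 0 days in 4 of 4 cases, where Alas2 was highest at 3 days, but with the length trend removed their log2 ratios at 3 days against 0 days were 0.18 to 0.36, on the side of Alas2. Their median log2 ratio at 5 days against 0 days was −1.997, beside −0.71 for Alas2 and −0.16 for the 9 members, and with the length trend removed these were −1.14, −0.56 and 0.01.

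The 20 other erythroid markers did not follow the globins as a set, though single ones did. At 5 days against 0 days 9 of the 20 lay below 0, or 13 under TMM scaling. Their medians were 0.09, 0.14 and 0.08 on the log2 scale for 3 against 0, 5 against 0 and 5 against 3 days, and the latter 2 turned to −0.17 and −0.15 under TMM scaling. Between 0 and 5 days 3 of the 20 rose 2-fold and 1 fell, where 15.5% of 11497 genes rose and 5.91% fell, so both lay near the shares of all genes. Those that rose were the membrane skeleton genes Spnb1 (3.61, 7.99 and 10.03 RPKM) and Ank1 (5.50, 9.65 and 12.4 RPKM) and the blood group gene Xk (1.97, 4.92 and 7.19 RPKM). With the length trend removed Xk alone (1.46 on the log2 scale) stayed past 2-fold, with Spnb1 at 0.81 and Ank1 at 0.60. Bpgm, which makes bisphosphoglycerate and so tunes oxygen release, was the only one 2-fold lower, at 66.3, 98.7 and 29.0 RPKM. Tspo2 was lower at each later time point, as the globins were, at 26.5, 20.5 and 13.3 RPKM. Its fall between 0 and 5 days was just short of 2-fold, and the log2 ratio of −0.99 was −1.29 under TMM scaling and −0.40 with the length trend removed. The log2 ratio of Bpgm was 0.57 at 3 days against 0 days and −1.76 at 5 days against 3 days. Like Alas2 it was thus highest at 3 days and lowest at 5 days. Trim10 (21.4, 34.3 and 19.2 RPKM) and Tmcc2 (27.1, 39.8 and 23.3 RPKM) had the same order. Neither changed 2-fold, though at 5 days against 3 days the log2 ratio of Trim10 was −0.84, or −1.06 once scaled by TMM factors. Slc4a1, the anion exchanger band 3, stood at 109, 183 and 174 RPKM, and the transcription factor gene Gata1 at 22.4, 16.0 and 21.9 RPKM.

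**Figure D4:**
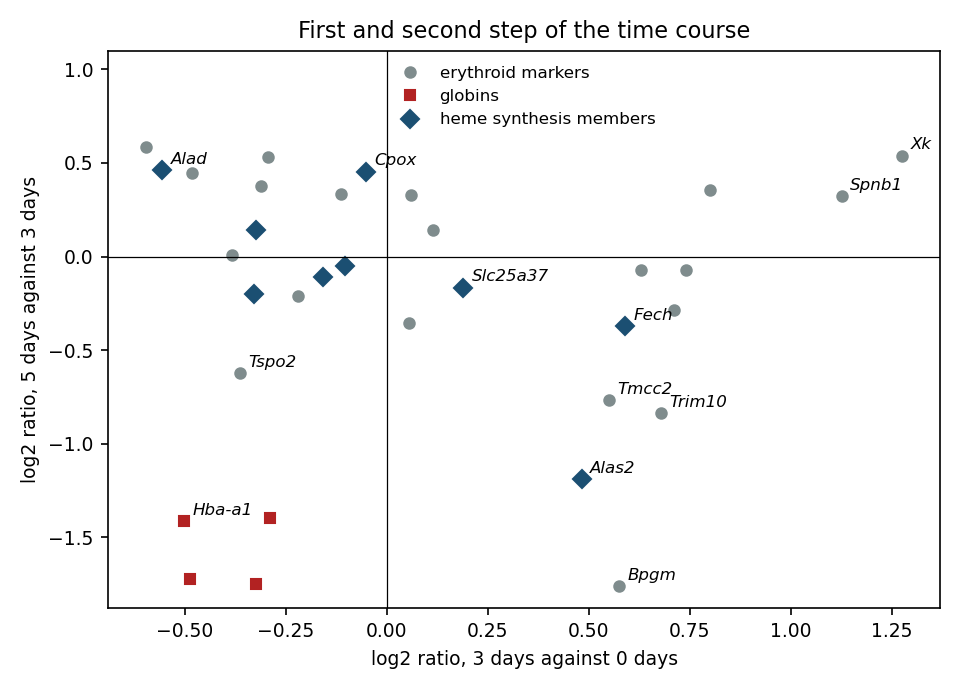
log2 ratio of 3 days against 0 days (horizontal axis) and of 5 days against 3 days (vertical axis) for the 9 members (diamonds), 4 globins (squares) and 20 erythroid markers (circles). Alas2, at 0.48 and −1.19, lies in the lower right with Bpgm, Trim10 and Tmcc2, the 4 globins lie in the lower left, and Alad, at −0.56 and 0.46, lies in the upper left. With the length trend removed, which is not plotted, the globins lie to the right of 0. Both axes share the library of 3 days.

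Among the genes that averaged 1 RPKM or more, 54 of 11144 (0.485%, Alas2 included) had both a log2 ratio at 3 days against 0 days at least as high as that of Alas2 and one at 5 days against 3 days at least as low. By distance between the pairs of log2 ratios against 0 days, the genes most like Alas2 among 8183 that averaged 5 RPKM or more were Itgb2l, Tmem154, Tob1, Lilrb4 and 9830166K06Rik. Itgb2l, the nearest at a distance of 0.0402, stood at 123, 167 and 74.3 RPKM. The genes nearest to the median of the 9 members were Ufd1l, Cd200r3, Tmc6, Clk3 and Eno3, with distances up to 0.0143. These likenesses rest on 3 libraries.

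Genes that serve the pathway without being enzymes of it were read from a list of 23 partners, of which 21 had a row and 19 a mean of at least 1 RPKM. Against 0 days the medians of these 19 were −0.05 after 3 days and 0.18 after 5 days on the log2 scale, of which the former was 0.11 with the length trend removed and the latter −0.13 under TMM scaling. At 3 days against 0 days 1 of 19 fell 2-fold, where 2.41% of 11325 genes did. It was the heme-binding protein gene Hebp1, at 24.5, 11.6 and 14.7 RPKM, and with the length trend removed its log2 ratio of −1.08 was −0.64. Between 0 and 5 days 1 of these 19 rose, where 15.5% of 11497 genes did. It was Abcb8, a mitochondrial transporter, at 3.59, 5.80 and 8.18 RPKM, with a log2 ratio of 1.17. A further partner below that mean, the folate and heme carrier gene Slc46a1, rose from 0.29 to 1.30 RPKM on 9 and 40 reads, with a log2 ratio of 1.83. Under TMM scaling 0 of the 19 were higher (Abcb8 at 0.86) and 2 were lower, Atpif1 at −1.08 and Hebp1 at −1.04. The most abundant partner was Atpif1, which holds the mitochondrial ATPase in check and is needed for Fech activity. It stood at 453, 244 and 266 RPKM, and its log2 ratio of −0.77 at 5 days against 0 days was −1.08 under TMM scaling and 0.14 with the length trend removed, for a transcript of 552 bases. Tspo, a porphyrin-binding outer membrane protein, stood at 177, 135 and 136 RPKM, and its log2 ratio of −0.38 between 0 and 5 days was 0.25 with the length trend removed. Abcb10, which stabilises mitoferrin 1, stood at 13.7, 16.8 and 22.3 RPKM, and Eif2ak1, the heme-regulated kinase that slows globin translation when heme is short, at 53.1, 59.1 and 58.5 RPKM.

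Fech holds an iron-sulfur cluster, and 13 genes of cluster assembly had a mean of at least 1 RPKM. Against 0 days their medians were −0.28 after 3 days and −0.26 after 5 days on the log2 scale, 0.06 and 0.11 with the length trend removed, and 0 of 13 changed 2-fold, or 1 (Glrx5, lower) at 5 days under TMM scaling. Glrx5, which passes clusters on, stood at 135, 74.6 and 73.0 RPKM. Its log2 ratio of −0.89 at 5 days against 0 days was −1.20 under TMM scaling and −0.30 with the length trend removed.

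The supply of glycine and succinyl-CoA was read from 10 genes, 8 of them with a mean of at least 1 RPKM, and 0 of 8 changed 2-fold, or 1 (Shmt1) at 5 days against 0 days with the length trend removed. Against 0 days their medians were −0.03 after 3 days and 0.28 after 5 days on the log2 scale, and neither sign held under every scaling, with 0.02 after 3 days once the length trend was removed and −0.03 after 5 days under TMM factors. Shmt1, which interconverts serine and glycine, came nearest, with 6.21, 6.37 and 12.3 RPKM and a log2 ratio of 0.97 at 5 days against 0 days, or 1.09 with the length trend removed. Dlst, a subunit of the enzyme that makes succinyl-CoA, stood at 86.1, 80.4 and 76.1 RPKM.

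Of 4 genes of heme breakdown 0 changed 2-fold. Hmox1, heme oxygenase 1, stood at 67.7, 76.2 and 83.0 RPKM, and the biliverdin reductase gene Blvrb at 192, 130 and 127 RPKM. At 5 days against 0 days their log2 ratios of 0.29 and −0.59 had no fixed direction, with −0.02 for Hmox1 under TMM scaling and 0.05 for Blvrb with the length trend removed. Hmox2 rose most of the 4, at 36.1, 37.7 and 45.8 RPKM. Its log2 ratio in the same comparison was 0.34, or 0.04 under TMM scaling and 0.74 with the length trend removed.

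Among 8 genes that respond to or carry iron, 7 had a mean of at least 1 RPKM, and against 0 days their medians were 0.12 after 3 days and 0.49 after 5 days on the log2 scale, the latter 0.18 under TMM scaling and 0.19 with the length trend removed. Between 0 and 5 days 1 of 7 rose 2-fold, where 15.5% of 11497 genes did. It was Steap3, the ferrireductase of red cell precursors, at 4.61, 6.07 and 11.9 RPKM. Ftl1, ferritin light chain and the most abundant of the list, stood at 1851, 1568 and 1425 RPKM, with a log2 ratio of −0.38 at 5 days against 0 days that was −0.69 under TMM scaling and 0.17 with the length trend removed. Slc40a1, the iron exporter ferroportin, stood at 36.5, 51.2 and 35.05 RPKM, with a log2 ratio of −0.06 between 0 and 5 days, which was −0.37 under TMM scaling and −0.24 with the length trend removed. Tfrc, the transferrin receptor, stood at 66.9, 68.9 and 72.9 RPKM, with a log2 ratio of 0.12 at 5 days against 0 days that was −0.19 under TMM scaling. Aco1, which encodes iron regulatory protein 1, stood at 6.13, 6.66 and 10.9 RPKM, and Ireb2, which encodes iron regulatory protein 2, at 11.4, 16.5 and 18.5 RPKM. These proteins bind the Alas2 hairpin printed above, and their binding was not measured.

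Slc25a37 and Slc25a38 belong to a family of mitochondrial carriers, of which 34 further genes had a mean of at least 1 RPKM. Slc25a37 ranked 3 among these 36 at each time point, after Slc25a5 (225, 230 and 299 RPKM), an ATP/ADP carrier, and Slc25a3 (220, 170 and 174 RPKM), the phosphate carrier. Slc25a38 ranked 9, 11 and 13 in the same order of time points. The median log2 ratio of the 34 at 5 days against 0 days was 0.36, beside 0.31 for the 11144 genes, where Slc25a37 had 0.02 and Slc25a38 −0.16. Of the 34, 7 were higher and 2 lower by 2-fold, where 15.5% of 11497 genes were higher and 5.91% lower. Under TMM scaling 4 of the 34 were higher and the median was 0.06, beside 0.01 for all genes. Slc25a13, a carrier of aspartate and glutamate, had the largest rise (2.06, 3.39 and 6.97 RPKM), and Slc25a33, a pyrimidine nucleotide carrier, the largest fall (6.55, 2.95 and 1.51 RPKM).

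**Figure D5:**
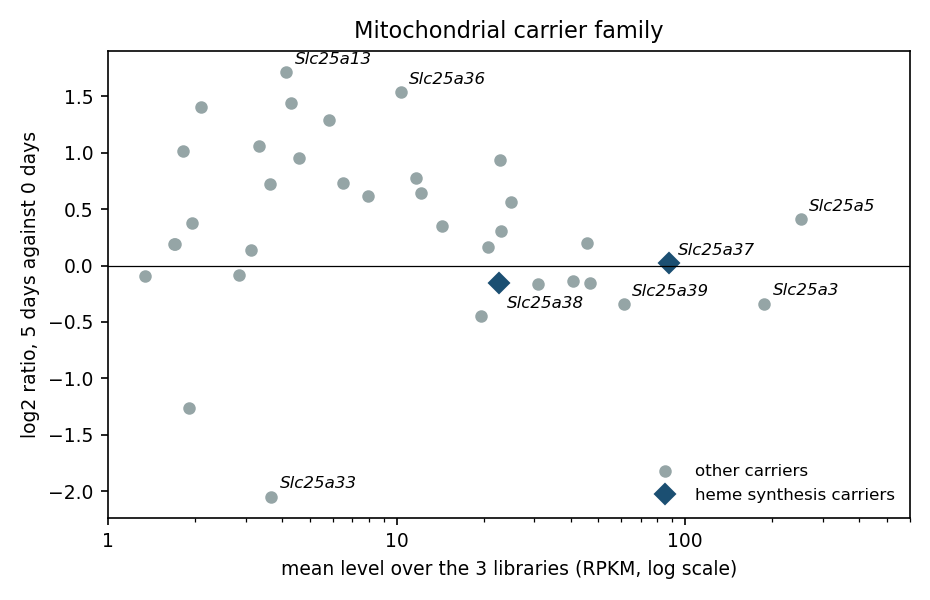
Mean level over the 3 libraries (horizontal axis, RPKM, log scale) and log2 ratio of 5 days against 0 days (vertical axis) for 36 mitochondrial carriers with a mean of at least 1 RPKM. Diamonds mark Slc25a37 at 0.02 and Slc25a38 at −0.16, both within the band of other abundant carriers, and Slc25a33 lies lowest at −2.05.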

How the data were processed

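Total BM RNA was enriched for poly(A) mRNA and made into Illumina TruSeq libraries, which do not mark the strand, so that reads from overlapping genes on opposite strands cannot be told apart. Per the paper's methods the authors quantitated with Cufflinks 1.0.3, and the submitters' processing notes name build mm8. The aligner is not given in the sources used here. The 3 deposited tables hold whole read counts and RPKM for each pair of time points. The deposited RPKM equalled the counts over length and total reads on genes to within 0.1%, apart from 18 rows at 0 days and 14 at 3 days. Genes without reads, listed by the authors at 0.01 RPKM, were set to 0. The tables also give log2 ratios, P values and false discovery rates of the authors' own comparisons, which were not used. The row of the highest mean RPKM stood for a name with several rows.

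Ratios were computed as log2 of RPKM + 0.1, which understates changes of low genes. Alternatives were pseudocounts of 1 and 0.01, TMM factors (edgeR 4.0.16) and median-of-ratios size factors (DESeq2 1.42.0) on the counts, the reads outside the 100 most abundant genes, removal of the trend on length (lowess, span 0.3), the sum of rows, minimums of 5 RPKM or none, and folds of 1.5 and 4. Python 3.11.15 and R 4.3.3 were used. The steps were tested on simulated counts. With 1 library per group no p-value was computed.

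The members and lists were chosen with earlier results of these data known. From each list the genes named were those with the highest means and the largest rises and falls at 5 days against 0 days. Ank1, Trim10, Tmcc2, Gata1, Abcb10, Eif2ak1, Ireb2 and Slc25a28 were named beside this rule, after their values were seen. The rows named Ogdh and Fth1 hold single transcripts near 0, and nothing was read from them. Promoter windows of Fech and Slc25a37 were not used here. Some genes of the lists are not reported here.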

Additional observations from a re-analysis of the deposited data

How the results depend on the processing

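No paired analysis was possible because each time point has 1 library, and no replicate could be left out. For single members, a pseudocount of 1 or 0.01 or the sum of rows moved 0 of 27 ratios beyond their counting intervals, whereas TMM and median-of-ratios factors each moved 20 of 27. Where the counting interval excluded 0, signs turned for Fech at 5 days against 0 days (−0.0910 with TMM and −0.0806 with median-of-ratios factors) and, with the length trend removed, for Urod (0.0639), Ppox (0.0250) and Slc25a37 (−0.0260) at 3 days against 0 days. Where the interval held 0, they also turned for Slc25a38 (0.15 and 0.11 at 3 and 5 days against 0 days), Alad (0.25) and Uros (0.0149) at 5 days with the length trend removed, for Slc25a37 at 5 days against 0 days (−0.29 to −0.18 over the 4 scalings) and for Uros at 5 days against 3 days (−0.08 with TMM, −0.07 with median-of-ratios factors). The members' median with the length trend removed was 0.0250 at 3 days and 0.0149 at 5 days against 0 days. Between 5 and 0 days it became −0.47 with TMM factors, −0.46 with median-of-ratios factors and −0.36 outside the 100 most abundant genes. At 5 days against 3 days it was −0.33 under either set of factors. For the members past a fold, Alas2 alone (1) was lower at 5 days against 0 days under TMM factors, under median-of-ratios factors and at 1.5-fold. At 1.5-fold Fech alone (1) was higher at 3 days against 0 days, and at 4-fold 0 were lower at 5 days against 3 days. Over all genes, those 2-fold higher made up 72.4% of changed genes at 5 days against 0 days (1786 higher, 680 lower), and 41.3% under TMM factors (816 and 1162). At 3 days against 0 days this share was 62.9% and 48.9%, and at 5 days against 3 days 36.1% and 10.6%. At this depth the counting intervals were widest for Uros, the member with the fewest reads, and variation between mice was not measured.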
